A study of Gallus gallus with 28 samples.

Results

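B7.10, a derivative of the chicken B-cell lymphoma line DT40 in which the gene for Bruton's tyrosine kinase (BTK) was disrupted, was compared after 24 h and after 6 h of culture without any stimulus. The comparison took the 3 unstimulated B7.10 arrays titled 24 h and the 3 titled 6 h, which is 6 of the 28 arrays of the series, and paired them by the number of the fetal calf serum batch in which the cells were grown. The series covered 4 lines on Affymetrix chicken arrays: parental DT40, B7.10, and B41-13 and B46-5, the knockout given back human BTK in its normal or a kinase-inactive form. B41-13 and B46-5 serve here only for values set beside those of B7.10. DT40 serves for such values and for a test of the difference between the lines. Its arrays also enter the estimate of the spread behind the B7.10 p-values. Cultures began in medium without serum and went on in fetal calf serum. Other arrays of the series held cells stimulated with antibody to IgM (M4). Those of DT40 and B7.10 at 6 h enter here only through the estimate of the spread. Each array held RNA from 10 repeated experiments pooled as 1 sample, so the p-values below measure the spread between such pools. B7.10 is a single knockout line, so the values describe that line and not the loss of BTK in general. Cell numbers and density at the 2 times were not analysed here, and in bulk RNA fewer cells of a kind cannot be told apart from less RNA per cell.

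DT40 cells carry a surface B-cell receptor and divide fast, and the line is widely used for gene disruption because it recombines targeted DNA readily. BTK is a cytoplasmic kinase that, once the B-cell receptor is engaged, activates phospholipase C. Cells kept in one medium draw down its nutrients and lipids while their own products build up. Among the gene programmes known to follow such changes are sterol synthesis, which is switched on by SREBP transcription factors when cell sterol is low, the amino-acid response driven by ATF4, and the chaperone genes of the cytosol and the endoplasmic reticulum.

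All values are log2 levels of probe sets, and a change is the level at 24 h minus that at 6 h. Levels under 3.98 were taken as near background, the range of the 40% dimmest probe sets. The median level of an array lay between 4.37 and 4.50 over the 28 arrays. BTK stood at 5.09, 4.97 and 4.74 in B7.10 at 6 h in serum batches 1, 2 and 3, and at 5.30, 4.92 and 4.96 at 24 h. The groups overlapped, and the change was 0.12 ± 0.12 (SE of the fit, 3 pairs, limma, Benjamini-Hochberg adjusted p = 0.684). DT40 lay at 9.81 ± 0.13 at 6 h and 10.32 ± 0.26 at 24 h (SD, n = 3 arrays each), so the knockout label held in every B7.10 array. Of 12 B-cell genes other than BTK looked up in B7.10, 10 were measured and 9 were above background at both times, among them PAX5 (mean 5.36 at 6 h, a low reading), POU2AF1 (10.59) and the receptor chain CD79B (11.62), while the class II activator CIITA was near background (3.57).

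The change between the times was modest in size and mostly downward. Of 38382 probe sets tested, 270 passed an adjusted p of 0.05 (0.703% of those tested), 77 higher at 24 h (0.201%) and 193 lower (0.503%). Probe sets that rose did so by 0.38 to 1.10, with a median of 0.55, and those that fell changed by -0.39 to -1.50, with a median of -0.58. Only 16 of the 270 changed at least 2-fold, 1 of them upward. An unadjusted p under 0.05 was found for 5812 probe sets, where 1919 are expected by chance. In 256 of the 270 the 3 arrays of one time all lay beyond the 3 of the other, which held for 14.8% of all probe sets tested. With each gene read by its brightest probe set, 111 of 13009 genes passed (0.853%), 31 higher (0.238%) and 80 lower (0.615%). After cyclic loess scaling between arrays the calls were split evenly, with 109 higher and 110 lower (49.8% higher, against 28.5% in the values as deposited), so the excess of falls depends on the scaling.

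**Figure D1:**
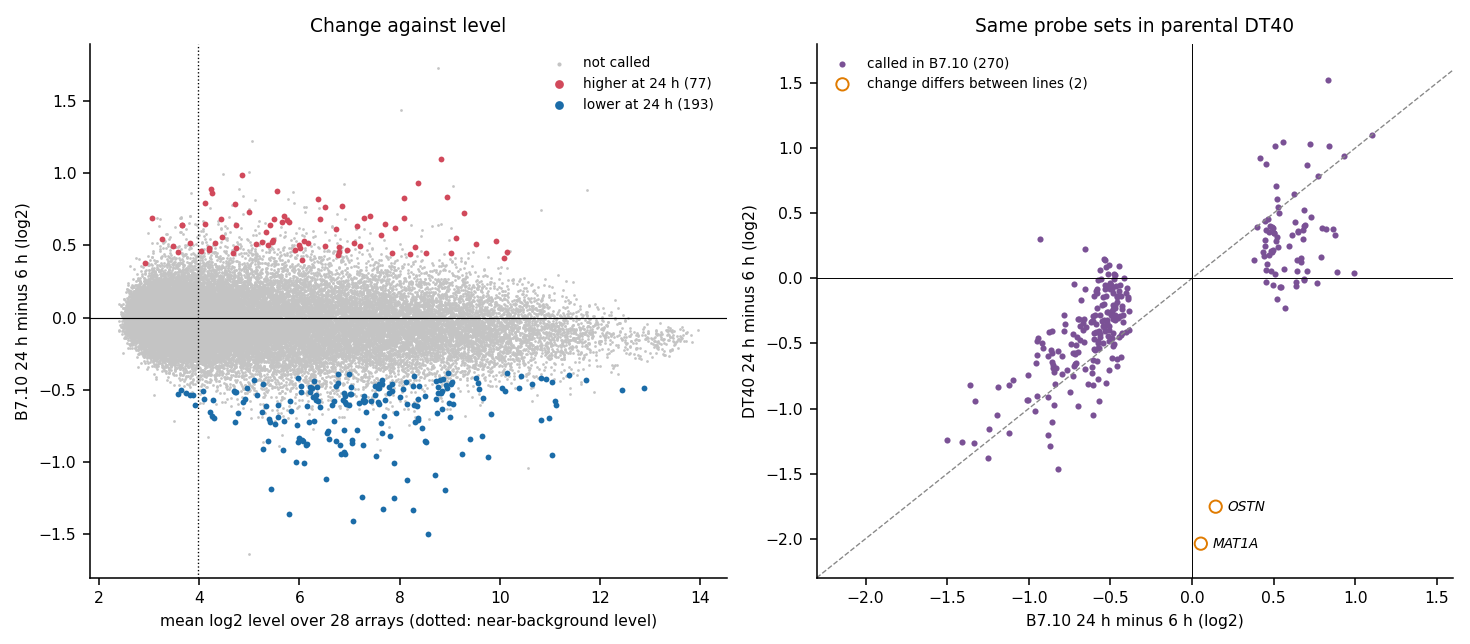
Left, the change in B7.10 (24 h minus 6 h, log2) of each probe set against its mean log2 level over 28 arrays, with the 77 that rose and the 193 that fell in colour; right, the change of the 270 called probe sets in B7.10 (horizontal) and in parental DT40 (vertical), with a dashed line of equal change. The brightest probe sets drift below 0 on the left, and on the right 247 of the 270 calls have the same sign in both lines. MAT1A and OSTN, circled, were not called in B7.10 and fell in DT40.

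The largest fall was that of TMEM47, a membrane protein of cell junctions. It read 8.69, 8.48 and 8.69 at 6 h and 7.57, 6.85 and 6.94 at 24 h in serum batches 1, 2 and 3. Every 24 h array lay below every 6 h array. The change was -1.50 ± 0.19 (SE of the fit, limma, adjusted p = 0.00214), a 2.84-fold fall. All 3 of its probe sets fell. F2RL1, the protease-activated receptor that trypsin-like proteases open, read 9.23, 8.90 and 8.93 at 6 h and 8.34, 7.35 and 7.37 at 24 h. The groups did not overlap, and serum batch 1 showed the smallest fall; the change was -1.33 ± 0.17 (adjusted p = 0.00214). Of its 3 probe sets 2 fell, and the dimmest changed by -1.64 without passing (adjusted p = 0.056). GPR137B, a lysosomal membrane protein, read 9.09, 9.29 and 9.22 at 6 h and 8.01, 8.31 and 7.69 at 24 h. Its groups were apart in every batch, all 3 probe sets fell, and the brightest changed by -1.20 ± 0.16 (adjusted p = 0.0023).

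HSPA2, an HSP70-family chaperone, read 9.39, 9.25 and 9.23 at 6 h and 8.31, 8.21 and 8.06 at 24 h. The 3 batches fell by almost the same amount, and the change of -1.09 ± 0.10 (adjusted p = 0.000108) was the smallest p of the comparison; it passed in all 17 alternative fits. SERINC5, a membrane protein that carries lipids across the bilayer and restricts retroviruses in human cells, read 8.05, 8.04 and 7.86 at 6 h and 7.03, 6.27 and 6.67 at 24 h. The groups were well apart (-1.33 ± 0.15, adjusted p = 0.00119), though 3 further probe sets of the gene were near background and changed by -0.16 to 0.01. CBFA2T3, a transcriptional corepressor of blood cells, read 6.19, 5.18 and 6.07 at 6 h and 4.59, 4.83 and 4.45 at 24 h. Here batch 2 began low and fell little, so the mean change of -1.19 ± 0.19 (adjusted p = 0.00829) rests on batches 1 and 3, and its other 3 probe sets changed by -0.13 to 0.13.

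Among cytokine receptors, TNFRSF1B and TGFBR1 fell. TNFRSF1B, the type 2 receptor for tumour necrosis factor, read 7.78, 7.79 and 7.53 at 6 h and 7.13, 6.81 and 6.29 at 24 h. The groups did not overlap and the fall was largest in batch 3 (mean -0.96 ± 0.13, adjusted p = 0.0029), with 2 of 4 probe sets called. TGFBR1, the type I receptor for transforming growth factor beta, read 9.56, 9.53 and 9.55 at 6 h and 9.03, 8.63 and 8.46 at 24 h. Its 6 h arrays were almost identical and all lay above the 24 h arrays (-0.84 ± 0.15, adjusted p = 0.0147). LDLRAD4, a membrane inhibitor of transforming growth factor beta signalling that was chosen after its values were seen, read 10.01, 9.31 and 9.79 at 6 h and 8.98, 8.62 and 8.68 at 24 h. The groups were apart (-0.94 ± 0.11, adjusted p = 0.0013) and 2 of 3 probe sets fell. Of 30 cytokine receptors and integrins measured, TNFRSF1B and TGFBR1 fell and none rose (6.67% called, against 0.615% lower over all genes), and the median change of the list was -0.04, the same as that of all genes.

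PSPH, SFXN1, SLC36A4, SLC44A1 and CTSV completed the 12 largest falls. PSPH, which makes serine in the last step of its synthesis, read 9.83, 9.96 and 10.001 at 6 h and 8.59, 9.35 and 8.97 at 24 h. Its groups did not overlap, but the batches fell unequally (-0.96 ± 0.21, adjusted p = 0.0466), and the call passed in only 5 of 17 alternative fits. SFXN1, a carrier of serine into mitochondria in human cells, read 11.20, 11.32 and 11.28 at 6 h and 10.17, 10.58 and 10.21 at 24 h. It fell in each batch by 0.74 or more (-0.95 ± 0.14, adjusted p = 0.00584). The amino-acid transporter SLC36A4 read 6.93, 6.93 and 6.82 at 6 h and 6.37, 5.92 and 5.54 at 24 h. No 24 h array reached the 6 h arrays, and the change was -0.95 ± 0.13 (adjusted p = 0.00214). SLC44A1, a choline transporter, changed by -1.0 ± 0.16 (adjusted p = 0.00605), with the largest fall in batch 3 (6.17 to 4.65). CTSV, a lysosomal cysteine protease of the cathepsin family, changed by -1.01 ± 0.17 (adjusted p = 0.00871), from a narrow range of 6.09 to 6.13 at 6 h to 4.87 to 5.54 at 24 h. The called probe set of PSPH had a second near background (-0.13), SLC36A4 had 4 others that changed by -0.62 to 0.12, and SLC44A1 had 2 that changed by -0.70 and -0.44 (adjusted p = 0.113 and 0.121). On a list of 24 measured genes of the ATF4 amino-acid response, PSPH was the only member called (4.17%, against 0.615% lower over all genes). Changes of the list ran from -0.96 to 0.44, with a median of -0.08 against -0.04 over all genes. ASNS, the asparagine synthetase, changed by -0.38 (adjusted p = 0.132) and the amino-acid exchanger SLC7A5 by -0.37 (adjusted p = 0.224). None of 17 aminoacyl-tRNA synthetases passed, against 0.853% of all genes, and their lowest adjusted p was 0.234.

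**Figure D2:**
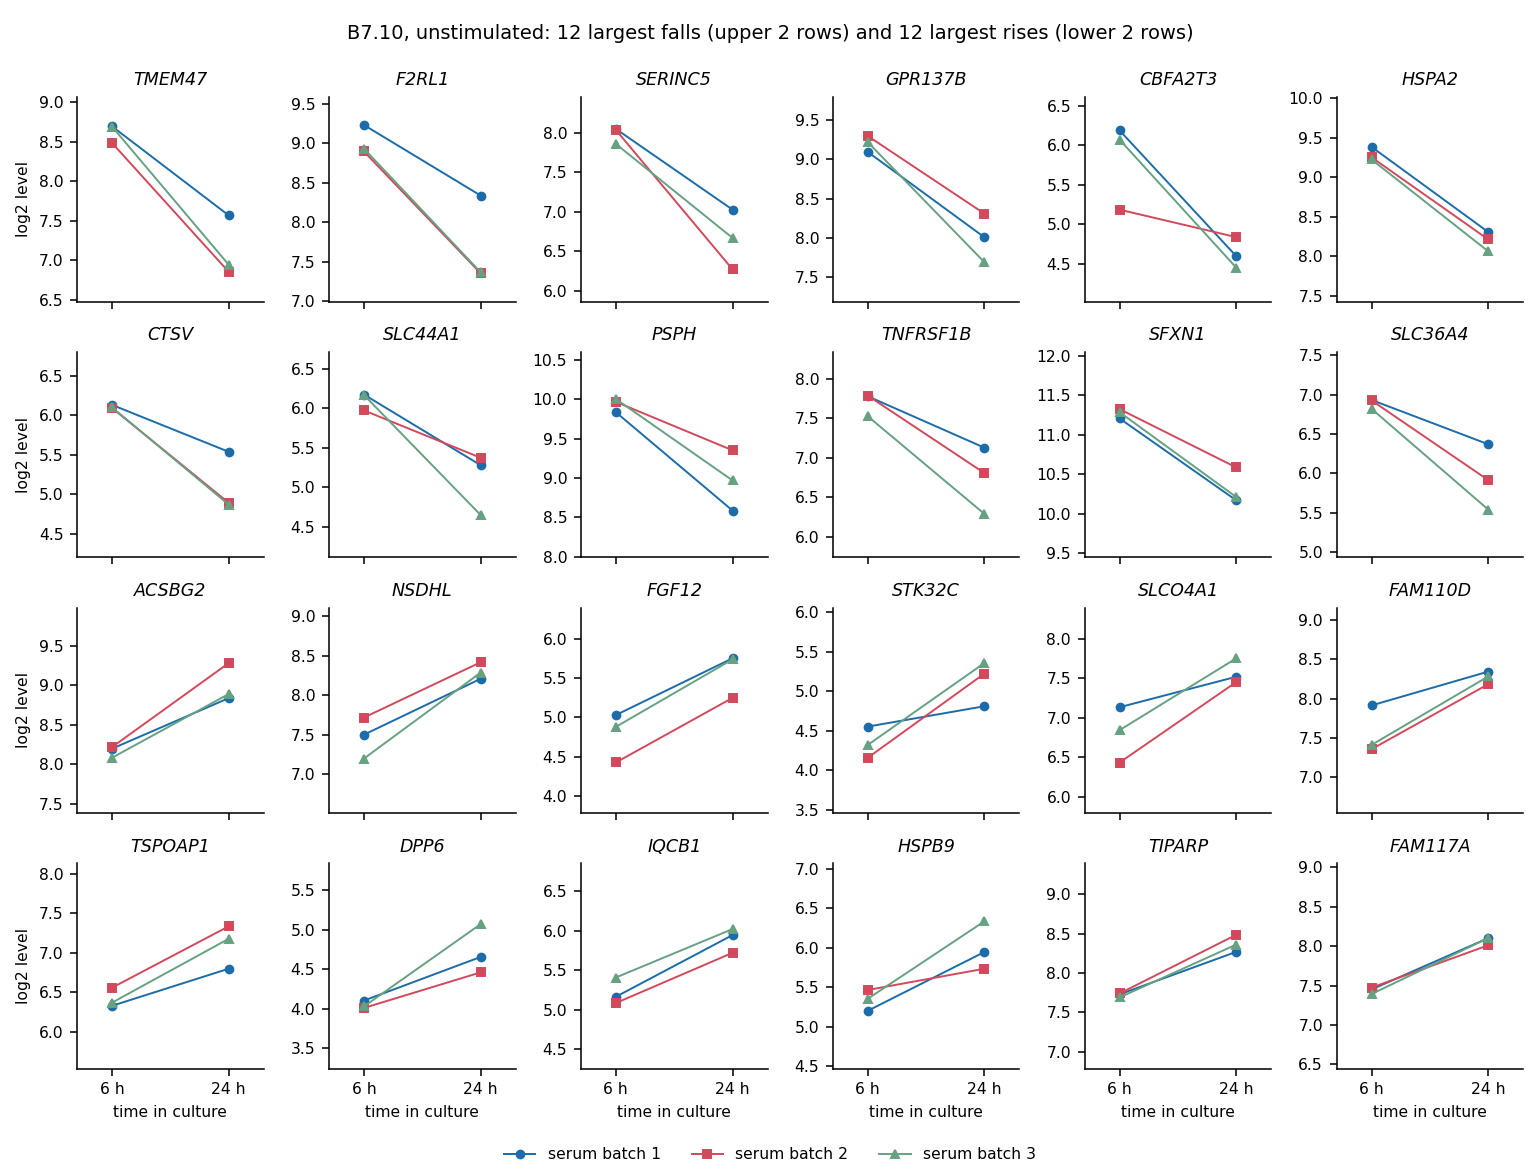
Log2 level (vertical, a span of 2.6 in each panel) at 6 h and 24 h of the 12 genes with the largest falls and the 12 with the largest rises in B7.10, 1 line per serum batch. Within each panel every line runs the same way, the 2 times do not overlap, and batch 1 of STK32C, batch 2 of HSPB9 and batch 2 of CBFA2T3 show the flattest lines.

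The largest rises were smaller than the largest falls. ACSBG2, an acyl-CoA synthetase that activates long-chain fatty acids, read 8.20, 8.22 and 8.08 at 6 h and 8.84, 9.28 and 8.89 at 24 h. All 24 h arrays lay above all 6 h arrays (0.84 ± 0.11, adjusted p = 0.00214). TIPARP, an ADP-ribosyltransferase induced by the aryl hydrocarbon receptor, read 7.73, 7.74 and 7.69 at 6 h and 8.27, 8.48 and 8.36 at 24 h. The 6 h arrays agreed closely and the rise was 0.65 ± 0.12 (adjusted p = 0.017). SLCO4A1, an organic anion transporter, rose from 7.13, 6.43 and 6.84 to 7.52, 7.45 and 7.75 (0.77 ± 0.12, adjusted p = 0.00791), least in batch 1, while its dimmer probe set changed by -0.16. FAM117A rose by 0.63 ± 0.10 (adjusted p = 0.00871), from 7.39 to 7.47 at 6 h to 8.01 to 8.10 at 24 h. IQCB1, a protein of the cilium and centrosome, rose by 0.68 ± 0.11 (adjusted p = 0.00655; 0.19 on a dimmer probe set), and FAM110D by 0.71 ± 0.14 (adjusted p = 0.0308).

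The other named rises were of genes with low levels or with probe sets that differed. FGF12, an intracellular member of the fibroblast growth factor family, rose by 0.80 ± 0.18 (adjusted p = 0.049), the kinase STK32C by 0.79 ± 0.14 (adjusted p = 0.0157) and DPP6, a partner of potassium channels, by 0.68 ± 0.13 (adjusted p = 0.0264). Each of the 3 lay between 4.01 and 5.03 at 6 h. Of the other probe sets, those of STK32C changed by 0.01, 0.60 and -0.15 and those of DPP6 by 0.09, -0.05 and -0.04. TSPOAP1, which binds the mitochondrial translocator protein, rose by 0.69 ± 0.11 (adjusted p = 0.00649), with 2 of 6 probe sets called and the other 4 changing by 0.10 to 0.35. HSPB9, a small heat-shock protein, read 5.20, 5.46 and 5.35 at 6 h and 5.95, 5.73 and 6.33 at 24 h (0.67 ± 0.15, adjusted p = 0.0456), while its other probe set changed by -0.42.

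Probe sets of 1 gene went different ways most plainly for RBM3, a cold-inducible RNA-binding protein, which was chosen after its values were seen. One probe set read 8.47, 8.27 and 7.79 at 6 h and 9.22, 9.56 and 9.05 at 24 h. This rise of 1.10 ± 0.16 (adjusted p = 0.003) was the only call upward of at least 2-fold. A second rose by 0.93 ± 0.11 (adjusted p = 0.001). The brightest probe set read 12.42, 12.63 and 12.50 at 6 h and 12.30, 12.19 and 11.89 at 24 h, a change of -0.39 ± 0.12 that did not pass (adjusted p = 0.133). The dimmest changed by -0.21. The 2 probe sets that rose in B7.10 changed by 1.10 and 0.94 in DT40, by 1.20 and 0.85 in B41-13 and by 0.90 and 0.77 in B46-5, and the brightest by -0.29, -0.05 and -0.25. Which transcripts each probe set reads was not analysed here. Among the 192 genes with a call, 13 had 2 or more called probe sets and 0 had calls in both directions, while 81 were called only on a probe set other than the brightest.

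**Figure D3:**
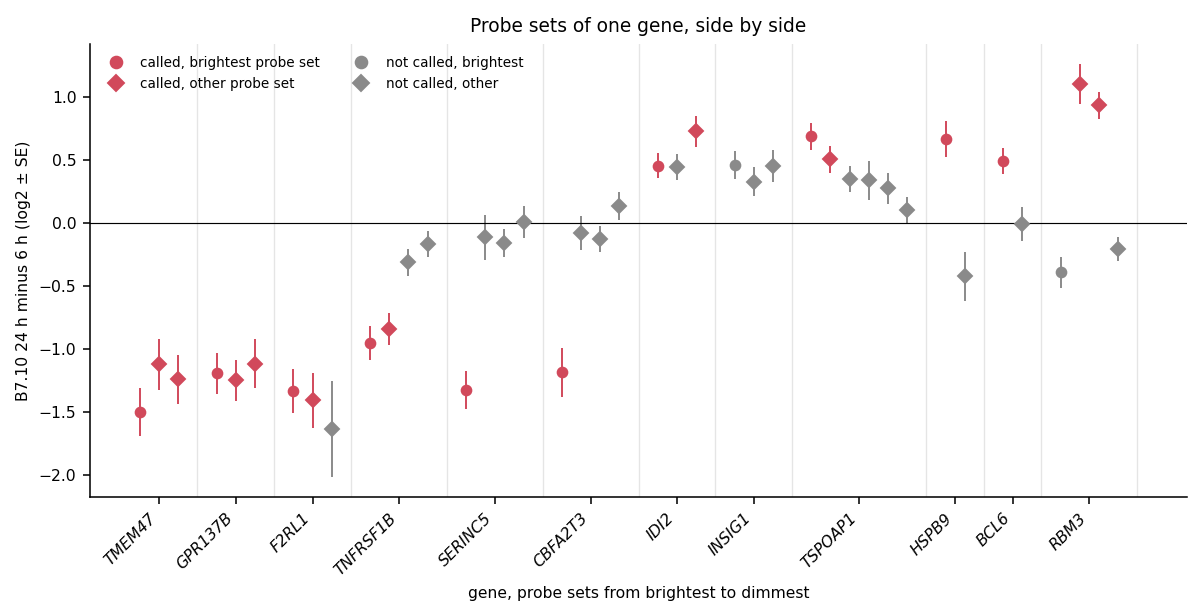
Change in B7.10 (24 h minus 6 h, log2, ± SE of the fit, 3 pairs) of each probe set of 12 genes, from brightest to dimmest within a gene. The spread behind this SE is also estimated from DT40 and stimulated arrays, so the bars are not the spread of the pairs alone. All probe sets of TMEM47 and GPR137B fell, whereas SERINC5, CBFA2T3, HSPB9, BCL6 and RBM3 show called and uncalled probe sets far apart.

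Sterol synthesis and uptake held the largest share of called members among the lists with 10 or more measured genes. Of 23 genes 3 rose and 0 fell (13% called, against 0.238% higher over all genes), and the median change was 0.16 against -0.04 over all genes. NSDHL, which removes the C4 methyl groups of sterol intermediates, read 7.50, 7.72 and 7.20 at 6 h and 8.21, 8.42 and 8.29 at 24 h. The groups did not overlap (0.83 ± 0.12, adjusted p = 0.00328). FDFT1, the squalene synthase, rose from 9.15, 9.46 and 8.98 to 9.48, 9.93 and 9.71 (0.51 ± 0.11, adjusted p = 0.0456). IDI2, an isopentenyl diphosphate isomerase, rose from 9.60, 9.98 and 9.38 to 10.10, 10.19 and 10.04 (0.45 ± 0.10, adjusted p = 0.0477). In each the 24 h arrays all lay above the 6 h arrays, although for FDFT1 the gap was only that from 9.46 to 9.48.

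The remaining sterol genes did not pass on their brightest probe sets. INSIG1, the sterol sensor that holds SREBP back, changed by 0.46 (adjusted p = 0.0723) with groups that did not overlap, and DHCR7, of the last step, by 0.44 (adjusted p = 0.098). The squalene epoxidase SQLE changed by 0.30 on its brightest probe set (adjusted p = 0.198) and rose by 0.42 on another (adjusted p = 0.033). MVD, of the mevalonate steps, changed by -0.39 (adjusted p = 0.194). In all, 11 of 23 had an unadjusted p under 0.05, against 17.2% of all genes. In 6 of 23 the 24 h arrays all lay above the 6 h arrays (4.8% of all genes) and in 2 all below (11.1% of all genes). The list's median was -0.04, 0.18 and 0.29 in serum batches 1, 2 and 3. NSDHL passed in 16 of 17 alternative fits, FDFT1 in 4 and IDI2 in 5; with batch 3 left out none of the 23 passed, and with batch 2 left out 1 did. Of 20 genes of fatty-acid synthesis and activation none passed, against 0.853% of all genes. The smallest p was that of the ATP citrate lyase ACLY, which changed by -0.41 (adjusted p = 0.0773).

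HSPA5 and DERL1 fell among genes of the endoplasmic reticulum. Of 31 measured genes of folding in the endoplasmic reticulum and the unfolded protein response, 2 fell (6.45%, against 0.615% lower over all genes) and none rose, with a median of -0.18. HSPA5, the main HSP70 of that compartment, read 11.68, 11.94 and 11.76 at 6 h and 11.39, 11.54 and 11.15 at 24 h. The groups did not overlap (-0.43 ± 0.09, adjusted p = 0.0366). DERL1, part of the channel that exports misfolded proteins, read 11.06, 11.08 and 11.12 at 6 h and 10.61, 10.82 and 10.49 at 24 h (-0.45 ± 0.09, adjusted p = 0.0371). Its relative DERL3 fell by 0.59 on a dimmer probe set (adjusted p = 0.011), while its brightest changed by -0.37 (adjusted p = 0.0723). XBP1, the transcription factor of this response, changed by -0.44 (adjusted p = 0.121) and EIF2AK3, one of its sensors, by 0.38 (adjusted p = 0.153). HSPA5 and DERL1 passed in 4 of 17 alternative fits each, and neither did without batch 3 or without the block for serum batch; HSPA5 lost its call under cyclic loess. Of 25 cytosolic heat-shock genes HSPB9 rose and HSPA2 fell (8% called, against 0.853% of all genes), and the median was 0.01.

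Single members of other lists fell, as did 0.615% of all genes. HMOX1, the enzyme that breaks down haem, read 9.27, 10.12 and 9.61 at 6 h and 8.75, 9.24 and 8.56 at 24 h. It fell in each batch (-0.82 ± 0.17, adjusted p = 0.0312) as the only call among 23 genes of the NRF2 and haem response. BOK, a BCL2-family member that promotes cell death, fell by 0.69 (adjusted p = 0.0371), 1 of 22 genes of p53 and apoptosis, and changed by -0.36 on a second probe set (adjusted p = 0.211). NFKBIZ, a nuclear regulator of NF-kB targets, fell by 0.57 (adjusted p = 0.0301), from 7.79 to 7.94 at 6 h to 7.25 to 7.32 at 24 h, as 1 of 17 NF-kB genes. The early growth-factor response gene KLF10 fell by 0.46 (adjusted p = 0.0431), 1 of 23 immediate-early genes, and changed by -0.31 on a second probe set (adjusted p = 0.347). HMOX1, BOK, NFKBIZ and KLF10 all lost their calls under cyclic loess. FBXO32, a ubiquitin ligase known from muscle wasting, which was chosen after its values were seen, fell by 0.76 ± 0.11 (adjusted p = 0.00282).

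PIK3AP1 and BCL6 were the calls among genes of B-cell receptor signalling and B-cell identity. PIK3AP1, the adaptor that recruits phosphoinositide 3-kinase to the receptor complex, read 9.74, 9.68 and 9.50 at 6 h and 10.07, 10.44 and 10.01 at 24 h. It rose with no overlap (0.53 ± 0.09, adjusted p = 0.0143) and was the only call among 42 signalling genes (2.38%, against 0.853% of all genes), whose changes ran from -0.50 to 0.53 with a median of 0.04. BCL6, the repressor that marks germinal-centre B cells, read 8.30, 8.22 and 8.12 at 6 h and 8.79, 8.80 and 8.53 at 24 h. It rose by 0.49 ± 0.10 (adjusted p = 0.0392) as the only call among 31 identity genes (3.23%, against 0.853%), while its other probe set changed by -0.01. PIK3AP1 passed in 7 and BCL6 in 5 of 17 alternative fits, and neither did without the block for serum batch or without batch 1, 2 or 3. An unadjusted p under 0.05 was found for 12 of 42 signalling and 9 of 31 identity genes, against 17.2% of all genes. NFATC1, a calcium-responsive transcription factor, changed by -0.50 (adjusted p = 0.0729), and CD74, the invariant chain of class II, by -0.49 (adjusted p = 0.089).

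**Figure D4:**
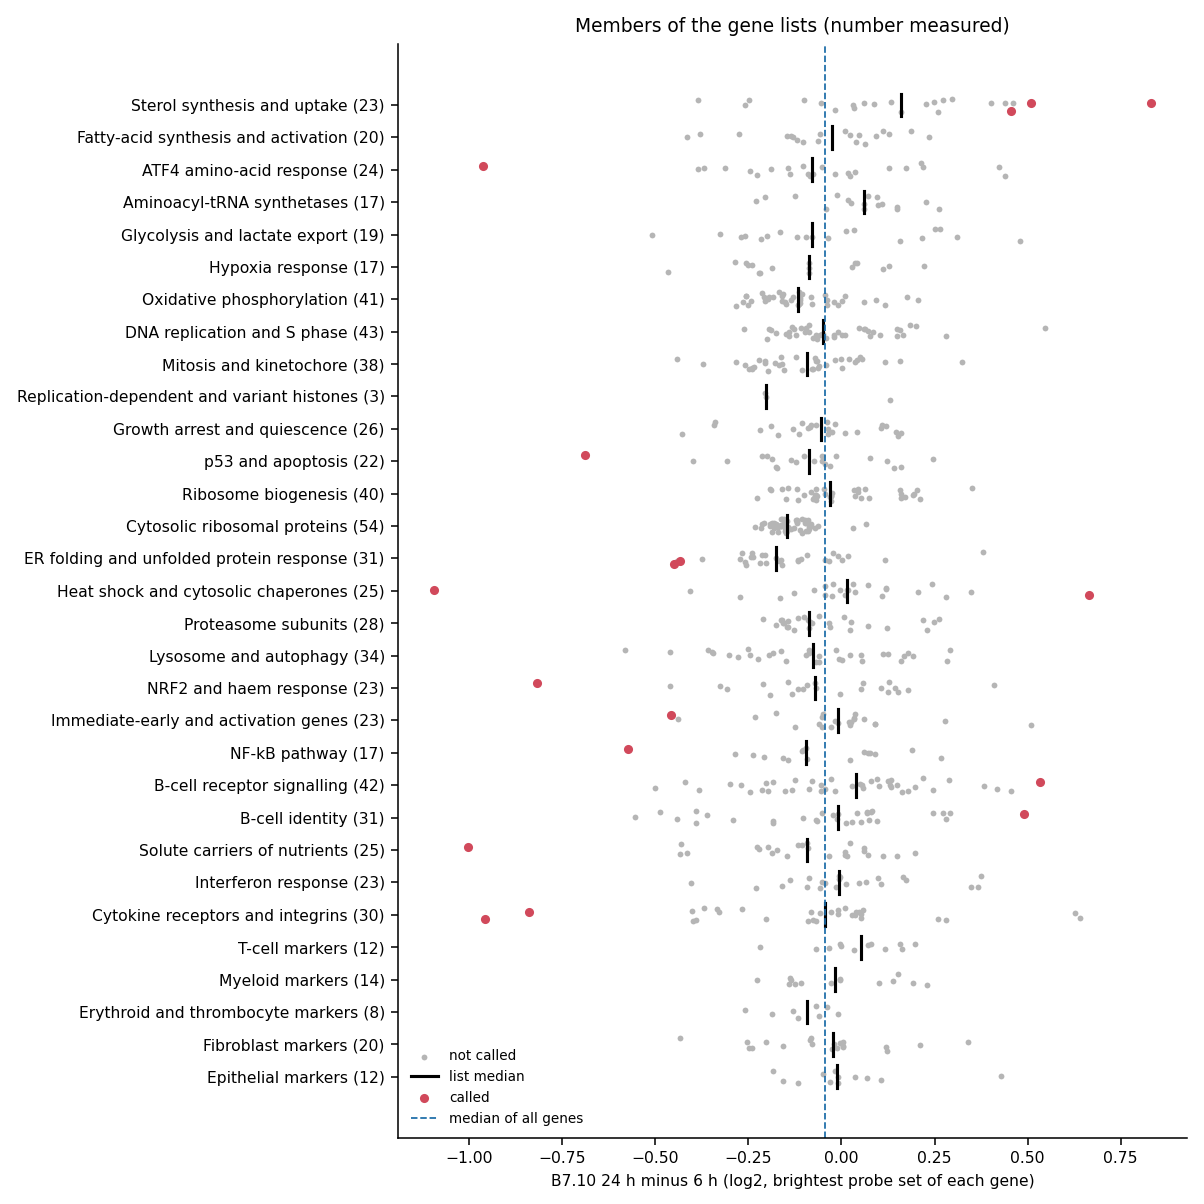
Change in B7.10 (24 h minus 6 h, log2) of each measured member of 31 gene lists, read by its brightest probe set; red points passed the test, black bars are list medians and the dashed line is the median of all genes (-0.04). Of the 31 lists 12 hold a called member, and the sterol list has its median farthest above the dashed line.

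Lists of growth and energy metabolism gave 0 calls by limma at an adjusted p of 0.05, against 0.853% of all genes. At that share a list of this size can hold 0 calls without differing from other genes. An unadjusted p under 0.05 was found for 17.2% of all genes. The lists were DNA replication (43 genes measured, 4 with an unadjusted p under 0.05), mitosis (38 and 10), ribosome biogenesis (40 and 2), cytosolic ribosomal proteins (54 and 9), oxidative phosphorylation (41 and 10), the proteasome (28 and 2), glycolysis (19 and 9) and the hypoxia response (17 and 2). The ligase LIG1, of DNA replication, changed by 0.55 (adjusted p = 0.127), and INCENP, of the chromosomal passenger complex, by -0.44 (adjusted p = 0.0581). The glucose transporter SLC2A1 changed by 0.48 (adjusted p = 0.0936). The glycolytic enzyme ENO1 changed by -0.27 on its brightest probe set (adjusted p = 0.131) and fell by 0.49 on another (adjusted p = 0.0185).

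None of the 54 cytosolic ribosomal protein genes passed, against 0.853% of all genes (lowest adjusted p = 0.217 by limma). Their median change was -0.15, and in 24 of 54 all 24 h arrays lay below all 6 h arrays, against 11.1% of all genes. All genes with a mean level of 12 or more had a median change of -0.14, and 36.9% of them were lower in this sense. The ribosomal list, with a median level of 13.3, makes up part of that set. Cyclic loess takes out any trend of change with level. For genes this bright a smaller shift after it was therefore fixed in advance, and the source of the shift was not tested. After cyclic loess the ribosomal median was -0.01, with 2 of 54 lower and 3 higher. After the same step 8.53% of all genes were lower, and 11.2% of those with a mean level of 12 or more. The oxidative phosphorylation list went from a median of -0.12 to -0.01 in the same way, with 13 and then 3 of 41 lower. Of all genes with a mean level of 10 to 12, 21.1% were lower before this step and 13.8% after it. The sterol and endoplasmic reticulum medians kept their sign, at 0.23 and -0.10.

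None of the 5 lists of other cell types held a call, against 0.853% of all genes. At that share lists this short can hold 0 calls without differing from other genes. Over the 6 h and 24 h arrays the summed log2 level of 12 T-cell markers ran from 60.0 to 60.6 and from 60.3 to 61.3, that of 14 myeloid markers from 60.7 to 63.4 and from 60.5 to 64.2, and that of 8 erythroid and thrombocyte markers from 39.6 to 41.4 and from 39.0 to 40.1. For 20 fibroblast markers the ranges were 90.4 to 92.2 and 89.7 to 91.7, and for 12 epithelial markers 52.8 to 53.6 and 52.4 to 54.6. The ranges of the 2 times overlapped in all 5 lists. In 2 of the 12 T-cell markers all 24 h arrays lay above all 6 h arrays (4.8% of all genes), and in 0 all below. Near background at both times were 4 T-cell, 4 myeloid, 2 erythroid and thrombocyte, 10 fibroblast and 5 epithelial markers, so the sums partly hold background. CD3D, a chain of the T-cell receptor complex, was high in B7.10 at both times (12.05 to 12.25 at 6 h, 11.88 to 12.05 at 24 h). It was also high at 6 h and 24 h in DT40 (means 11.98 and 11.98), B41-13 (11.98 and 11.79) and B46-5 (12.40 and 12.36). CD4, CD28, CTLA4 and GATA3 were near background in B7.10. CD3D was not the only T-cell marker above background, since only 4 of the 12 lay near it at both times. CD247, another marker of the list, had means of 5.27 at 6 h and 5.47 at 24 h in B7.10, and its groups did not overlap.

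The serum batches carried unequal weight. The SD of the change over all probe sets was 0.23, 0.24 and 0.30 in batches 1, 2 and 3, with 15, 6 and 151 probe sets at least 2-fold higher and 23, 42 and 83 at least 2-fold lower. The 270 calls had the same sign in all 3 batches, as did 34.3% of all probe sets, and 170 of them had their largest change in batch 3. Over 23029 probe sets above background, the changes of batches 1 and 2 correlated with r = 0.08, those of 1 and 3 with r = 0.31 and those of 2 and 3 with r = 0.43, within arrays that share 1 normalization. Among the DT40 pairs, each B7.10 pair was closest to that of the same serum batch. The r was 0.33, 0.58 and 0.37 in batches 1, 2 and 3, against 0.04 to 0.51 for other batches. The margin was small for batch 3 (0.365, against 0.356 with DT40 batch 2) and for batch 2 (0.58, against 0.51 with DT40 batch 3). Read from DT40, the match failed for batch 3. Its DT40 pair was closer to B7.10 batch 2 (0.51) than to B7.10 batch 3 (0.37). The B7.10 pair of batch 3 was also closer to that of B7.10 batch 2 (0.43). The 24 h array of batch 3 had the lowest mean level of the 28 arrays (5.17, against up to 5.24) and the narrowest interquartile range (2.90). The 6 h array of batch 3 had the highest median of the 28 (4.50). The part of these arrays in the calls was not tested beyond leaving them out. Without the 24 h array of batch 3, 27 probe sets passed, and leaving out any other single B7.10 array of the comparison gave 52 to 615. Without the whole of batch 1, 2 or 3 the count was 152, 61 or 1, and the 1 was HSPA2 (adjusted p = 0.0276). All 270 kept their direction in each of these fits, which was fixed for the fits without a batch by their same sign in all 3.

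Parental DT40 was set beside B7.10 to ask whether the change over time differs without BTK. In DT40 554 probe sets passed (1.44%; 1346, 126 and 51 without serum batch 1, 2 and 3), and 99 passed in both lines, all in the same direction, which is 36.7% of the B7.10 calls and 17.9% of the DT40 calls. The lines share serum batches but no arrays. Both tests came from 1 fit with 1 estimate of the spread per probe set. A probe set with a small spread therefore passes more easily in both lines. Of the 270 B7.10 calls 247 had the same sign in DT40 (91.5%, against 60.3% of all probe sets). The probe sets that rose in B7.10 had a median change of 0.33 in DT40, and those that fell had one of -0.42. B41-13, with 1 array at each time and no test, had the same sign for 243 of the 270 (90.0%, against 59.6% of all), and B46-5 for 242 (89.6%, against 57.5%); the description of the B46-5 array titled 24 h gives the time as 6 h. TMEM47 changed by -1.24 in DT40, -0.89 in B41-13 and -1.0 in B46-5, GPR137B by -1.05, -1.06 and -0.78, and HSPA2 by -0.78, -1.13 and -0.79.

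The difference between the lines in their change over time passed for 2 probe sets (0.00521% of those tested), and for none of the 270 B7.10 calls, whose lowest adjusted p was 0.0868. An unadjusted p under 0.05 was found for 2819 probe sets in all and for 84 of the 270. MAT1A, which makes S-adenosylmethionine from methionine, was near background in B7.10, at 3.59, 3.72 and 3.44 at 6 h and 3.52, 3.81 and 3.57 at 24 h. In DT40 it fell from 7.62, 7.72 and 8.21 to 5.37, 6.17 and 5.89. The difference of the changes was 2.09 ± 0.22 (SE of the fit, 3 pairs a line, limma, adjusted p = 0.00075). OSTN, a secreted peptide of bone and muscle in mammals, was near background in B7.10 too, at 3.56 to 3.68 at 6 h and 3.60 to 3.92 at 24 h. In DT40 it fell from 5.64, 5.46 and 5.21 to 3.82, 3.85 and 3.38, and the difference was 1.90 ± 0.20 (adjusted p = 0.00075). A fall could not have been measured in B7.10 from these levels, so both values reflect the DT40 change and show no measured difference of change. Without serum batch 2 or batch 3 neither gene passed (adjusted p = 0.0706 and 0.0654 for MAT1A, 0.122 and 0.0591 for OSTN).

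The sterol genes that rose in B7.10 also rose in DT40. NSDHL rose by 1.52 in DT40 and by 0.83 in B7.10, FDFT1 by 1.01 and 0.51, and IDI2 by 0.88 and 0.45. INSIG1 rose by 0.95 in DT40 (adjusted p = 0.000306), and STARD4, a sterol carrier chosen after its values were seen, rose by 0.70 in DT40 (adjusted p = 0.000783) and changed by 0.16 in B7.10 (adjusted p = 0.437). In DT40 9 of 23 rose, against 0.715% of all genes higher there. The change was smaller in B7.10 for 18 of 23 sterol genes, as it was for 63.4% of all genes, and the median difference was -0.29 against -0.06. None of the 23 differences passed the test, and 7 had an unadjusted p under 0.05, as did 2819 of all 38382 probe sets.

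**Figure D5:**
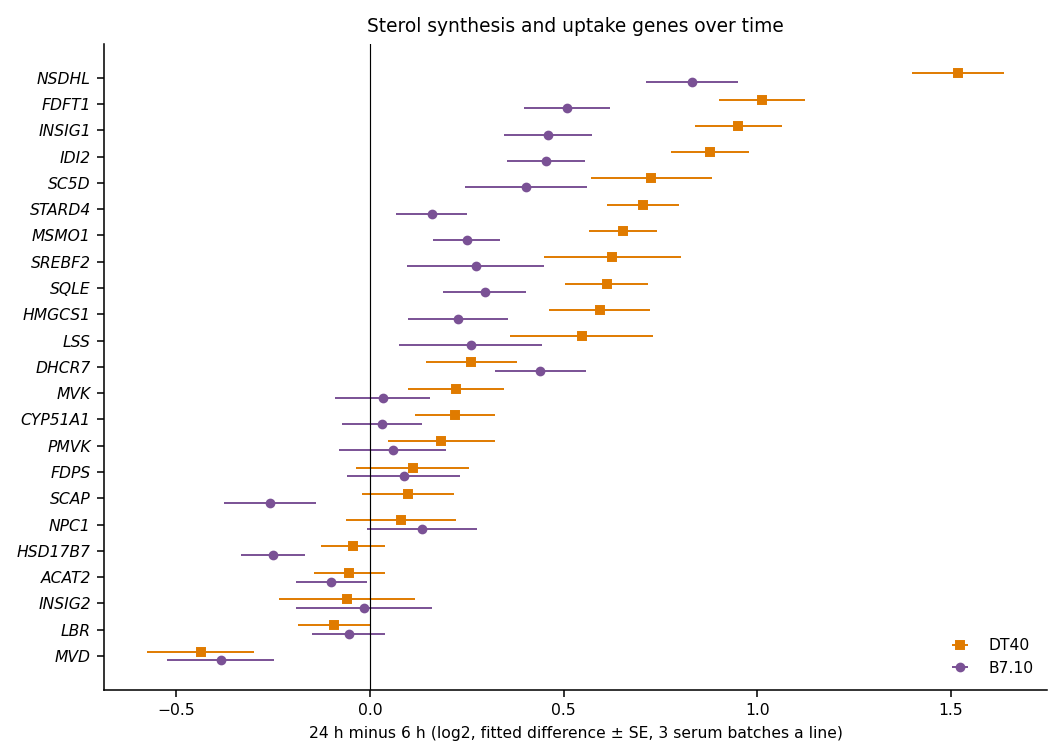
Fitted change (24 h minus 6 h, log2, ± SE, 3 serum batches a line) of 23 sterol synthesis and uptake genes in B7.10 and in DT40, ordered by the change in DT40. NSDHL leads in both lines, and from NSDHL to LSS each B7.10 point lies to the left of its DT40 point.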

How the data were processed

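Expression was measured on Affymetrix chicken arrays. The authors deposited log2 signals per probe set, made with RMA per the submitters' processing notes; they name no version. RMA brings arrays to 1 distribution of probe signals, so a shift of the whole transcriptome cannot be seen. The probe set values made from them still differed somewhat between arrays, with medians of 4.37 to 4.50. Of 38535 probe sets, 153 control or reporter probe sets were left out; 27168 of those tested had 1 symbol, 177 several and 11037 none. A gene was read by its brightest probe set over 28 arrays.

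Groups followed the titles. The 18 arrays of DT40 and B7.10 (6 h, 24 h and 6 h stimulated, 3 serum batches) were fitted with limma 3.58.1 in R 4.3.3, blocked by serum batch, which left 10 residual degrees of freedom, with Benjamini-Hochberg adjustment over all probe sets. The labels say that a number marks a shared batch of serum, which makes arrays of 1 number a pair. Residuals about the group means had r = 0.20, 0.25 and 0.29 for the 3 pairs of 6 h and 24 h arrays of 1 batch. Pairs of different batches had -0.24 to -0.01. The 3 residuals of a group cancel out, so positive values within a batch force negative ones between batches on average. Descriptions of 2 stimulated B7.10 arrays disagreed with their titles, and both enter only the spread. On simulated data for this comparison, the fit over 38382 probe sets recovered 38% of changes of 0.5 and 95% of changes of 1, with 3 false calls. Each size was given to 100 probe sets, and 38182 were left as they were. Whether these rates hold for the deposited arrays, where the serum batches carried unequal weight, was not tested.

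The comparison, the gene lists (785 of 957 entries measured) and the tests were chosen with earlier results of these data known. Named were BTK, the 12 largest called changes each way with 1 direction in all batches, up to 4 called members a list each way (otherwise the 2 with the smallest p), and the genes whose change differed between the lines. Other members of the lists, probe sets other than the brightest, LDLRAD4, FBXO32, RBM3, INSIG1, STARD4, SQLE and DERL3 were named after their values were seen. Alternatives were the fit without the block, smaller sets of arrays, a block within each line, no dim probe sets, cyclic loess, trend and robust moderation, and leaving out arrays or batches. Python 3.11.15, pandas 2.3.3 and matplotlib 3.10.9 drew the figures.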

Additional observations from a re-analysis of the deposited data

Results flagged for a closer look

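The contrast of the time changes between the lines passed the test for MAT1A (2.09 log2, from 0.05 in B7.10 and -2.04 in DT40) and OSTN (1.90 log2, from 0.14 and -1.75). Both genes lay near background in all 6 B7.10 arrays, where a fall could not be measured, and OSTN also in DT40 at 24 h. The values therefore record the fall in DT40 and are no measured difference of change. In B41-13 MAT1A went from 4.07 to 3.31 and in B46-5 from 3.55 to 3.70, with 1 array each. The contrast passed in neither gene without serum batch 2 (adjusted p = 0.0706 for MAT1A and 0.122 for OSTN) nor without batch 3 (0.0654 and 0.0591).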

How the results depend on the processing

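All 270 called probe sets kept their direction in every alternative that tested them, but their number depended on the fit. For most alternatives this direction was fixed in advance. Each call had 1 sign in all 3 batches, so leaving out a batch could not turn it. Another block, moderation or choice of groups left the estimated change itself the same. Without the replicate block 89 passed (27 higher, 62 lower), all among the 270. The 12 unstimulated arrays alone gave 76 (17 and 59), a block within each line 109 (29 and 80), and the fit without the 2 stimulated arrays of disputed label 150 (37 and 113). More passed with trend and robust moderation, at 386 (106 and 280), and without the 40% dimmest probe sets, at 302 (90 and 212). The 6 B7.10 arrays alone gave 243, of which 135 were shared, and cyclic loess 219 (109 and 110), of which 181 were shared. Leaving out a batch or a single B7.10 array gave 1 to 615 calls, 0 to 209 higher and 1 to 406 lower. Read by the probe set with the smallest p, 192 genes passed in place of 111.

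For DT40 the counts were 220 without the block, 258 with unstimulated arrays alone, 323 with a block within each line, 364 without the disputed arrays, and 51 to 1346 without a batch. They were 735 with trend and robust moderation, 694 without the dimmest probe sets and 688 under cyclic loess. The difference between lines passed for 4 probe sets with trend and robust moderation, and for 0 to 2 when arrays or batches were left out, with 0 without batch 2 or 3 (3267 and 1372 at an unadjusted p under 0.05).

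Of 37 named genes with a call, 16 lost it without the block, 8 under cyclic loess (FGF12, HSPB9, PSPH, BOK, HSPA5, HMOX1, KLF10 and NFKBIZ), 26 without batch 2 or without the 24 h array of batch 3, and 36 without batch 3. HBE, an uncalled haemoglobin gene at -0.19, ran from -0.390 (without batch 2) to 0.017 (without batch 3). With 3 pools a side, the precision is limited by the number of arrays, and changes of 0.5 or less may have been missed. On simulated data 38% of changes of 0.5 were recovered, and the rate in the arrays themselves was not tested.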
